A study of Mus musculus with 47 samples.

Results

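The genes described here carry glucose into the cell, break it down to pyruvate, handle lactate and pyruvate, or respond to low oxygen. They were found by gene symbol in the probe table of the array platform, which gave 55 of 25697 probes and 35 of 16593 named genes. The list held 40 names for 39 distinct genes, since Pkm2 is an older name of Pkm, and Gpi1, Eno1, Ldhb and Ankrd37 had no named probe. A single probe stood for 22 of the genes, 6 genes had 2 probes and 7 had 3. For a gene with several probes the brightest on average is reported, and the others where they differ from it.

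RNA was measured on 47 Illumina mouse arrays of embryonic stem (ES) cells. Line KO was Tcf7l1-/-, line 3XKO was Tcf7-/- Tcf7l2-/- Lef1-/-, line 4XKO was Tcf7-/- Tcf7l1-/- Tcf7l2-/- Lef1-/-, and WT carried none of these deletions. These genes encode the TCF/LEF proteins, DNA-binding partners of beta-catenin. All groups grew in N2B27 medium. Each of the 4 lines was grown as EpiLC (epiblast-like cells) in 12 ng/mL Fgf2, as EpiLC+CH with 3 days of Fgf2 followed by 24 hours with 3 uM CHIR99021 added, and as ESC (naive cells) in 1 uM PD0325901, 3 uM CHIR99021 and 1000 U/mL LIF. CHIR99021 inhibits the kinase Gsk3 and PD0325901 inhibits MEK. A further WT group had Fgf2 and CHIR99021 together (ContinuedCH). These 13 groups had 3 arrays each and form a set of 39 arrays normalized together. Another set of 8 arrays, all WT, held cells in LIF and PD0325901 for 24 hours and then CHIR99021 for 48 hours (LIF+PD+24hrCH in the labels, 3 arrays), LIF+PD (3 arrays), and single arrays of PD+CH and LIF+CH, with the same doses. The labels name 1 line per genotype, so the loss of a factor and other differences between lines cannot be told apart. The time in Fgf2 is not given in the sources used here for untreated EpiLC or ContinuedCH.

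Glycolysis turns glucose into pyruvate in a chain of enzymes, most of which exist as paralogs encoded by separate genes. Pyruvate is either reduced to lactate by lactate dehydrogenase or oxidised in mitochondria through the pyruvate dehydrogenase complex, which pyruvate dehydrogenase kinases switch off. The transcription factor Hif1a is broken down when oxygen is present, after prolyl hydroxylases of the Egln family mark it, and when stable it raises many glycolytic genes, lactate exporters and Vegfa. Mouse cells leaving the naive state towards the primed state of the epiblast are known to rely more on glycolysis.

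Values are probe intensities, which have no unit and are compared only within a probe. Arrays of a group correlated at 0.960 to 0.985 over probes in the larger set and at 0.962 to 0.969 in the smaller. The closest pair was among the KO EpiLC arrays. Probes with all arrays of a group under 13.6 (14.3 in the smaller set), the size of the lowest negative value, are called below background there. In at least 1 of the 13 groups 31 member genes were above background, 24 were so in all 13, and Bnip3, Egln1, Pfkfb3 and Slc16a1 in none. In WT EpiLC against WT ESC 9 of 9 naive marker genes fell and 5 of 6 formative marker genes rose, as the labels have it. The naive markers summed to 18461 to 19460.0 on KO EpiLC arrays and 18443 to 20121 on 4XKO EpiLC arrays, against 3775.5 to 4101 on WT EpiLC arrays and 32632 to 35834 on WT ESC arrays. In the bulk samples used here fewer cells of a kind and less RNA per cell cannot be told apart.

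In WT cells the move to EpiLC raised glucose transporter Slc2a1, lactate dehydrogenase Ldha, the lactate exporter Slc16a3 and the pyruvate dehydrogenase kinase Pdk1, and lowered the transporter Slc2a3, the phosphofructokinase Pfkp and hexokinase Hk1. Of the 55 probes 24 passed the test (15 higher, beside 15.7% of all probes, and 9 lower, beside 14.3%, limma with Benjamini-Hochberg adjustment over all probes, adjusted p under 0.05), which is 43.6% beside a background of 30% of all 25697 probes. Among probes above background in at least 1 group the shares were 55.8% of 43 member probes and 48.5% of 15262 probes in all. By gene 13 rose, 8 fell and 14 did not pass. The median log2 difference was 0.21 over the member genes and 0 over all probes.

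The 2 glucose transporters on the list moved in opposite directions. Slc2a1, the widely expressed glucose transporter, had intensities of 7623, 8220.1 and 7442 in WT EpiLC, against 2558, 3123.5 and 3468.5 in WT ESC. Slc2a3, a transporter of high glucose affinity, had 3657, 3617.5 and 3720 in WT EpiLC, against 9829, 11106 and 11840 in WT ESC. The groups did not overlap for either gene, with differences of 1.36 ± 0.14 log2 for Slc2a1 (SE, n = 3 arrays per group, limma adjusted p = 6.65e-09) and -1.57 ± 0.08 for Slc2a3 (limma adjusted p = 1.71e-15).

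The phosphofructokinases, which commit sugar to glycolysis, moved in the same contrary way. The liver-type subunit Pfkl had 1739, 1953 and 1632 in WT EpiLC, against 937, 880 and 874 in WT ESC, a rise of 0.98 ± 0.16 log2 (limma adjusted p = 7.39e-06). The platelet-type subunit Pfkp had 345.5, 385 and 357 in WT EpiLC, against 1429, 1432 and 1782 in WT ESC. That is a difference of -2.09 ± 0.14 log2 or 4.25-fold (limma adjusted p = 2.61e-13), and the groups did not overlap. A second Pfkp probe fell by 2.00 log2 and the remaining probe was below background in both groups. The muscle-type subunit Pfkm did not pass. The enolases, which make phosphoenolpyruvate, parted likewise. Muscle-type Eno3 had 190, 191 and 190 in WT EpiLC, against 46, 40 and 31 in WT ESC, a rise of 2.31 ± 0.15 log2. Neuronal Eno2 had 18, 18 and 21 in WT EpiLC, against 70, 61 and 61 in WT ESC, a difference of -1.77 ± 0.20 log2.

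Hexokinases trap glucose in the cell as its phosphate, and both on the list fell. Hk1 had 7.4, 19 and 12 in WT EpiLC, against 47, 46 and 57 in WT ESC, so 1 of the 3 WT EpiLC arrays was above the background limit. Hk2 had 4852, 4587 and 4647.5 in WT EpiLC, against 6347, 5778 and 6247 in WT ESC, a small difference of -0.38 ± 0.06 log2 without overlap (limma adjusted p = 1.55e-05). Pfkfb4, which makes the activator of phosphofructokinase, fell by 0.79 ± 0.13 log2.

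Further down the chain the triose isomerase Tpi1 rose by 1.16 ± 0.14 log2, the mutase Pgam1 by 0.75 ± 0.12 and the pyruvate kinase Pkm by 0.71 ± 0.08. Of 3 Tpi1 probes, 1 did not pass (0.35 ± 0.24 log2, limma adjusted p = 0.339). Gapdh, the enzyme that oxidises glyceraldehyde phosphate, rose by 0.19 ± 0.07 log2 on its brightest probe and did not pass on the other (0.03 log2). The aldolases Aldoa and Aldoc did not pass (0.21 and 0.12 log2).

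At the pyruvate branch the rises were among the strongest. Ldha, which reduces pyruvate to lactate, had 9598, 8687 and 7863.5 in WT EpiLC, against 3256.5, 3379 and 3702 in WT ESC (1.34 ± 0.11 log2, limma adjusted p = 9.36e-11). Slc16a3 had 34, 41.5 and 46.5 in WT EpiLC, while all 3 WT ESC arrays (-4.1, 1.3 and -3.5) were below background. It was therefore at least 2.96-fold higher, taking the mean of WT EpiLC over the limit of 13.6. The other Slc16a3 probes were below background in both groups and were not called. Pdk1, which inactivates pyruvate dehydrogenase, had 1216, 1490 and 1390.2 in WT EpiLC, against 283, 245 and 273 in WT ESC. The Pdk1 difference was 2.35 ± 0.10 log2 or 5.11-fold (limma adjusted p = 3.33e-17). Another kinase of that family, Pdk3, rose by 0.71 ± 0.14 log2. Pdha1, the subunit these kinases phosphorylate, fell by 0.67 ± 0.08 log2, and Pdhb, the other subunit on the list, did not pass.

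Hif1a itself had 119, 135 and 149 in WT EpiLC, against 122, 124 and 137 in WT ESC, a difference of 0.07 ± 0.12 log2 (limma adjusted p = 0.832). Egln3, the prolyl hydroxylase that is also a Hif1a target, had 312, 268 and 237 in WT EpiLC, against 36, 27 and 53 in WT ESC, a rise of 2.86 ± 0.27 log2 (limma adjusted p = 6.36e-10). Vegfa, the vascular growth factor, had 362, 330.5 and 376 in WT EpiLC, against 188, 163 and 228 in WT ESC, a rise of 0.90 ± 0.20 log2. A second Vegfa probe read 0.78 ± 0.36 log2 and did not pass (limma adjusted p = 0.109), and the remaining probe was below background in both groups. The hypoxia targets Ndrg1 and P4ha2 did not pass. P4ha1, a collagen prolyl hydroxylase, was called lower near background (10, 11 and 19 in WT ESC), and that call was lost without WT EpiLC replicate 1, WT EpiLC replicate 3 or WT ESC replicate 3.

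**Figure D1:**
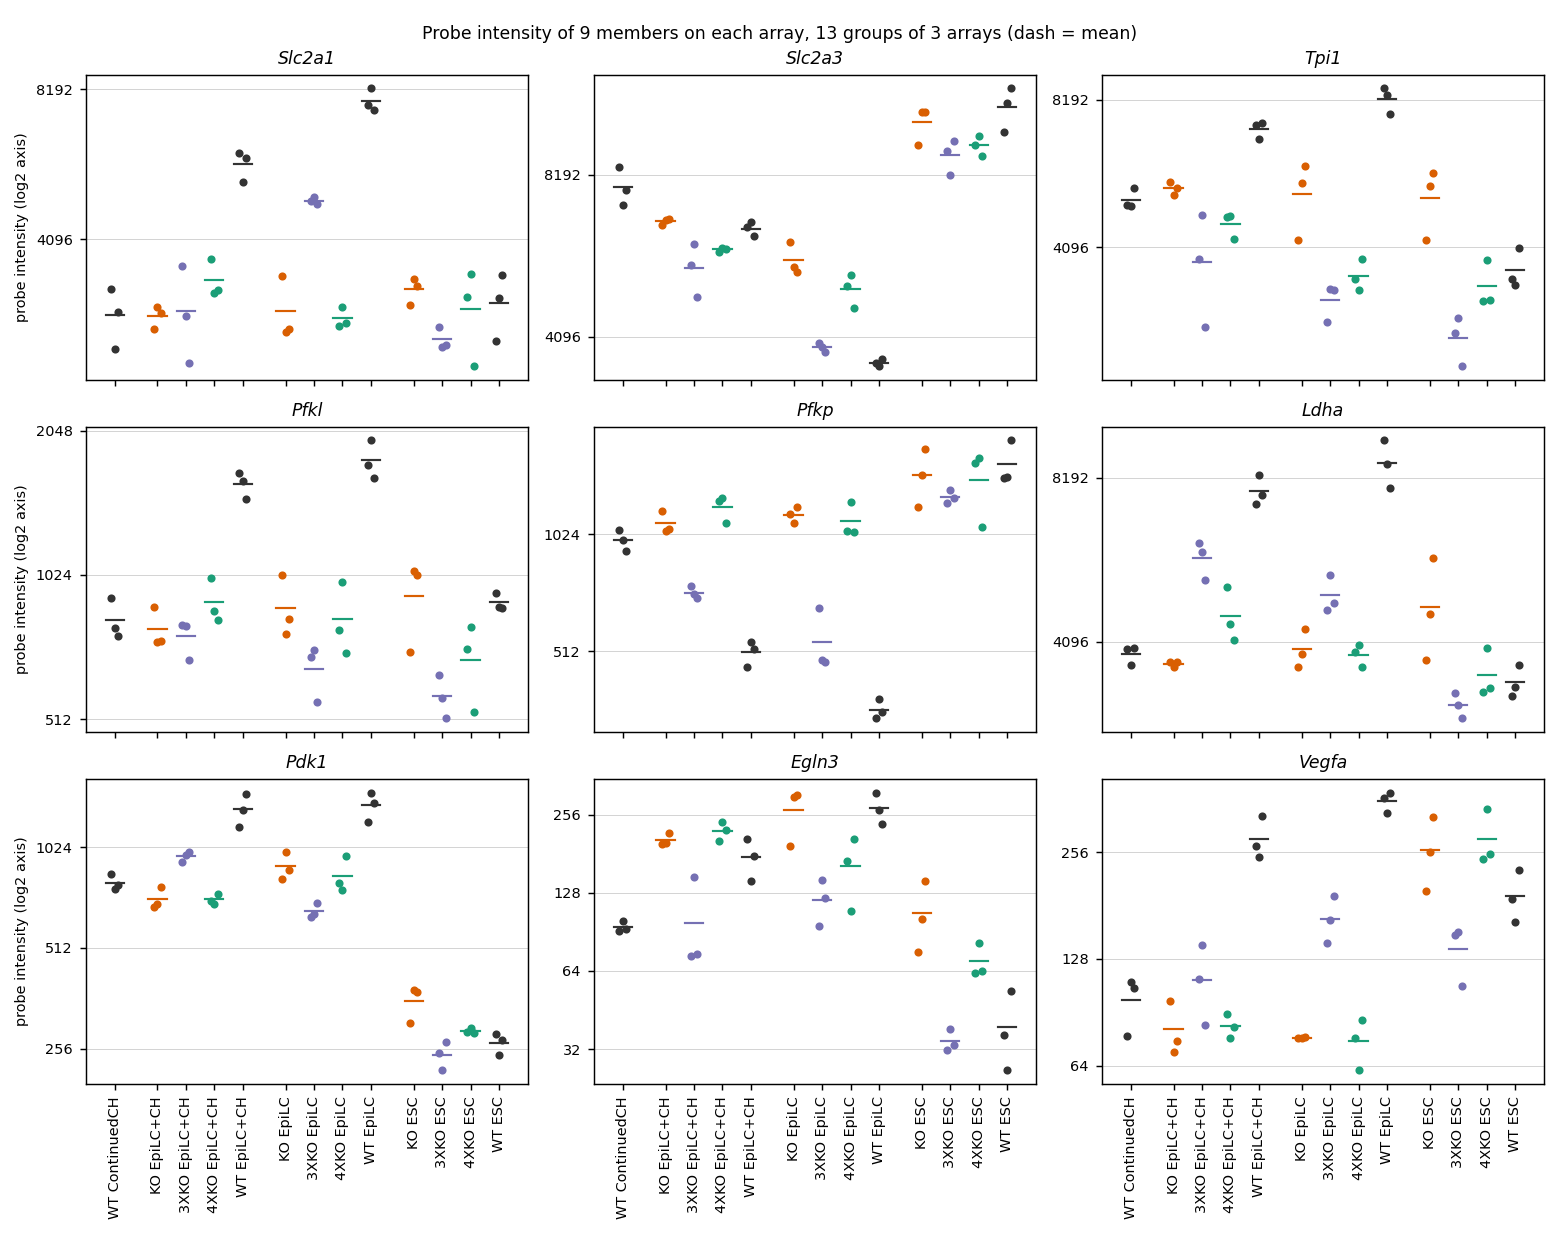
Probe intensity on a log2 axis for 9 members, with 1 point per array, a dash for the mean of 3 arrays, and groups from WT ContinuedCH at the left to the ESC groups at the right. The 3 WT EpiLC arrays of Slc2a1 lie between 7442 and 8220.1, above every other array, while those of Pfkp lie between 345.5 and 385, below every other array.

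Several of these genes carry the core of the Hif1a response element near their start. The letters ACGTG, searched on both strands, were present in 22 of 37 member windows (59.5%), beside 19.7% of the 27025 promoter windows of all genes. A palindrome CACGTG counts once on each strand. Slc2a3 and Ndrg1 had no window. Only the first listed window of a gene was counted, also for genes with several listed starts, such as Pdk1, Pkm and Vegfa. GCGTG is the other form of that core and was present in 21 of 37 member windows (56.8%), beside 32.5% of all windows. The list was chosen in part as Hif1a targets, so a share above that of all genes is no independent result. The windows printed here are those of 3 genes that rose together in WT EpiLC and of Pfkp, which fell. Each window runs from 250 bases before to 50 after the start in RefSeq on GRCm38.p6, 5′ to 3′ along the gene's strand, with ACGTG or its complement CACGT in capitals. Ldha lies on the plus strand of chr7:46845554-46845853, Slc2a1 on the plus strand of chr4:119108495-119108794, Slc16a3 on the plus strand of chr11:120948817-120949116 and Pfkp on the minus strand of chr13:6648722-6649021. A match describes these letters alone and is no evidence of binding.
Ldha: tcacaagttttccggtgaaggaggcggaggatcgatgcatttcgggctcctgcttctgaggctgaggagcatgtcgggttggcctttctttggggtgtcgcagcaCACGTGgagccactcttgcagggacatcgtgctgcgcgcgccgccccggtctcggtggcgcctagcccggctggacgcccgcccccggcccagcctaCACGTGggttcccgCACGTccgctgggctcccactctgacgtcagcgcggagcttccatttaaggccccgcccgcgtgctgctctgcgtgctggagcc
Slc2a1: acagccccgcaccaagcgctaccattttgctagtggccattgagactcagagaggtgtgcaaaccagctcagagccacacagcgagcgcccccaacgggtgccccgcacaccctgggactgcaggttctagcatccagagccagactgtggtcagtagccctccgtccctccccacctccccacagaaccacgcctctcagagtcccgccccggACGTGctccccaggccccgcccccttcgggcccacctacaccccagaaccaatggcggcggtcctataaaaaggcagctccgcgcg
Slc16a3: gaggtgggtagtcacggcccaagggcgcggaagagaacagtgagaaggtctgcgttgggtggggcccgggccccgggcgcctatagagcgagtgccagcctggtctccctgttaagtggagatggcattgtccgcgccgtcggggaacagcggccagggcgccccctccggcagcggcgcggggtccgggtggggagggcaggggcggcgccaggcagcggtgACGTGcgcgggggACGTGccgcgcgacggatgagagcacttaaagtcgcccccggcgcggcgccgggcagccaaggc
Pfkp: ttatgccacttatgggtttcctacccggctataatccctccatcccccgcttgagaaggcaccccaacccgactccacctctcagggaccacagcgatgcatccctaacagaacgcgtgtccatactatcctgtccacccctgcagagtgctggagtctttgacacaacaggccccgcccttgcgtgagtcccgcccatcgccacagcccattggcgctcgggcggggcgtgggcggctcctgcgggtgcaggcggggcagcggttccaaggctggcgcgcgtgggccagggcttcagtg

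Ldha holds 5 matches to ACGTG, at -145, -144, -48, -47 and -34 from the start, of which 4 belong to 2 palindromes. Slc16a3 holds 2, Slc2a1 holds 1 and Pfkp none. The GCGTG form, which is not capitalised, has 4 matches in the window of Pfkp, 2 in that of Ldha, 1 in that of Slc2a1 and none in that of Slc16a3. Of the 13 members that rose in WT EpiLC, 7 hold ACGTG (Egln3, Gapdh, Ldha, Pdk3, Pgam1, Slc16a3 and Slc2a1), and Eno3, Pdk1, Pfkl, Pkm, Tpi1 and Vegfa do not. Of the 7 that fell and have a window, 2 hold it (Hk2 and P4ha1), and Eno2, Hk1, Pdha1, Pfkfb4 and Pfkp do not. GCGTG is present in 8 of the 13 that rose and in 4 of the 7 that fell. Of the 13 that did not pass and have a window, 12 hold ACGTG and 6 hold GCGTG. Gpi1, Eno1, Ldhb and Ankrd37 have windows but no named probe, so they are not in these counts by direction. No test was made of these counts. The choice to look for GCGTG came after seeing the data.

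The same change of medium was made in the other lines. In KO and 4XKO, the lines without Tcf7l1, fewer member probes passed than in WT, and so did fewer of all probes. In KO EpiLC against KO ESC 17 probes passed, 30.9% beside a background of 20.4% (8 higher beside 10.8% of all probes and 9 lower beside 9.65%). In 4XKO the count was 15, 27.3% beside 20.9% (7 higher beside 11.1% and 8 lower beside 9.79%). In 3XKO, which keeps Tcf7l1, it was 23, 41.8% beside 27.8% (10 higher beside 14.6% and 13 lower beside 13.2%). Among probes above background in at least 1 group the shares were 39.5% of member probes beside 33.2% of all in KO, 53.5% beside 44.8% in 3XKO and 34.9% beside 33.8% in 4XKO, where the members' share is near the background. Of the 13 genes that rose in WT, 6 rose in KO (85.7% of the 7 risers in KO), 8 rose in 3XKO (88.9% of its 9) and 5 rose in 4XKO (83.3% of its 6). Of the 8 genes that fell in WT, 5 fell in KO, 7 in 3XKO and 5 in 4XKO. The same overlap was not counted over all probes, so these shares are not shown to be particular to the members. Egln3, Eno3, Pdk1 and Slc16a3 were called higher in all 4 lines, although Slc16a3 in 4XKO was below background in both media and has no fold there. In KO, where KO EpiLC lay near the background limit, Slc16a3 was at least 1.02-fold higher. Eno2, Hk2, Pdha1, Pfkfb4 and Slc2a3 were called lower in all 4.

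Slc2a1 had 3452, 2661.5 and 2700.1 in KO EpiLC, against 3019, 3410 and 3304 in KO ESC. In 4XKO it had 2743, 2992 and 2780 in EpiLC, against 3134.5, 3486 and 2281 in ESC. The groups overlapped in both lines. In 3XKO, with 4895, 4964 and 4812 in EpiLC against 2726.5, 2487 and 2515 in ESC, they did not. Compared with the WT difference, that of KO was lower by 1.51 ± 0.20 log2 (limma adjusted p = 1.64e-06) and that of 4XKO by 1.40 ± 0.20 (limma adjusted p = 6.37e-06). The 3XKO rise of 0.93 ± 0.14 log2 was not separated from the WT rise by the test.

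Ldha did not pass in KO (-0.24 ± 0.11 log2) or 4XKO (0.13 ± 0.11) and rose by 0.67 ± 0.11 in 3XKO. All 3 responses were lower than that of WT, by 1.57 ± 0.16 in KO (limma adjusted p = 1.38e-08), 0.67 ± 0.16 in 3XKO and 1.21 ± 0.16 in 4XKO. On its brightest probe Tpi1 likewise missed the threshold in KO (0.02 log2), 3XKO (0.26) and 4XKO (0.07). Its differences from the WT response were -1.14 ± 0.20, -0.90 ± 0.20 and -1.09 ± 0.20. A second Tpi1 probe was called higher in 3XKO, by 0.46 ± 0.15 log2 (limma adjusted p = 0.018). The remaining Tpi1 probe was not called there (-0.29 ± 0.24 log2). Pfkl and Pgam1 each passed in WT alone, and each had a response that differed from that of WT in all 3 other lines.

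Pfkp, the platelet-type phosphofructokinase, had 1156, 1091 and 1203.5 in KO EpiLC, against 1205 to 1694 in KO ESC, where WT EpiLC had 345.5 to 385. The KO difference was -0.32 ± 0.14 log2 and did not pass, and its distance from the WT difference was 1.77 ± 0.19 log2 (limma adjusted p = 3.86e-08). In 4XKO that distance was 1.76 ± 0.19. In 3XKO Pfkp fell by 1.25 ± 0.14 log2, still 0.84 ± 0.19 log2 short of the WT fall (limma adjusted p = 0.00371). Slc2a3 fell in every line, but less than in WT, by 0.72 ± 0.12 log2 less in KO, 0.39 ± 0.12 less in 3XKO and 0.68 ± 0.12 less in 4XKO. The 3XKO call for Slc2a3 was lost without any of 6 arrays taken singly: 3XKO EpiLC replicate 1 or 2, 3XKO ESC replicate 2, WT ESC replicate 2 or 3, or WT EpiLC replicate 2.

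In KO and 4XKO Vegfa fell, where in WT it rose. It had 77, 76.5 and 77 in KO EpiLC, against 199, 256 and 322 in KO ESC, a difference of -1.73 ± 0.20 log2 (limma adjusted p = 7.22e-08). In 4XKO it had 76, 62 and 86 in EpiLC, against 245, 338 and 252.5 in ESC, a difference of -1.89 ± 0.20 log2 (limma adjusted p = 1.3e-08). No array overlapped in either line, and the sign was opposite to that of WT. P4ha2 fell as well in KO (-1.43 ± 0.20 log2) and in 4XKO (-0.75 ± 0.20, lost without 4XKO EpiLC replicate 1).

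Tests of the difference from the WT response over all probes called 19 member probes for KO (34.5%, background 16.5%), 14 for 3XKO (25.5%, background 10.6%) and 16 for 4XKO (29.1%, background 14.4%). Counting only probes above background in at least 1 group, 44.2% of member probes were called for KO beside 27% of all. The shares were 32.6% beside 17.1% for 3XKO and 37.2% beside 23.4% for 4XKO. These tests share the WT arrays. The 3XKO count fell to 8 without WT ESC replicate 2 or 3XKO EpiLC replicate 2, and to 9 without 3XKO EpiLC replicate 1, 3XKO ESC replicate 2 or WT EpiLC replicate 2. Aldolase C, Aldoc, had 20, 36 and 20 in 3XKO EpiLC, against 131, 115.0 and 130.4 in 3XKO ESC. It fell by 2.36 ± 0.17 log2 there, 2.48 ± 0.24 log2 away from the WT response (limma adjusted p = 2.73e-08).

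**Figure D2:**
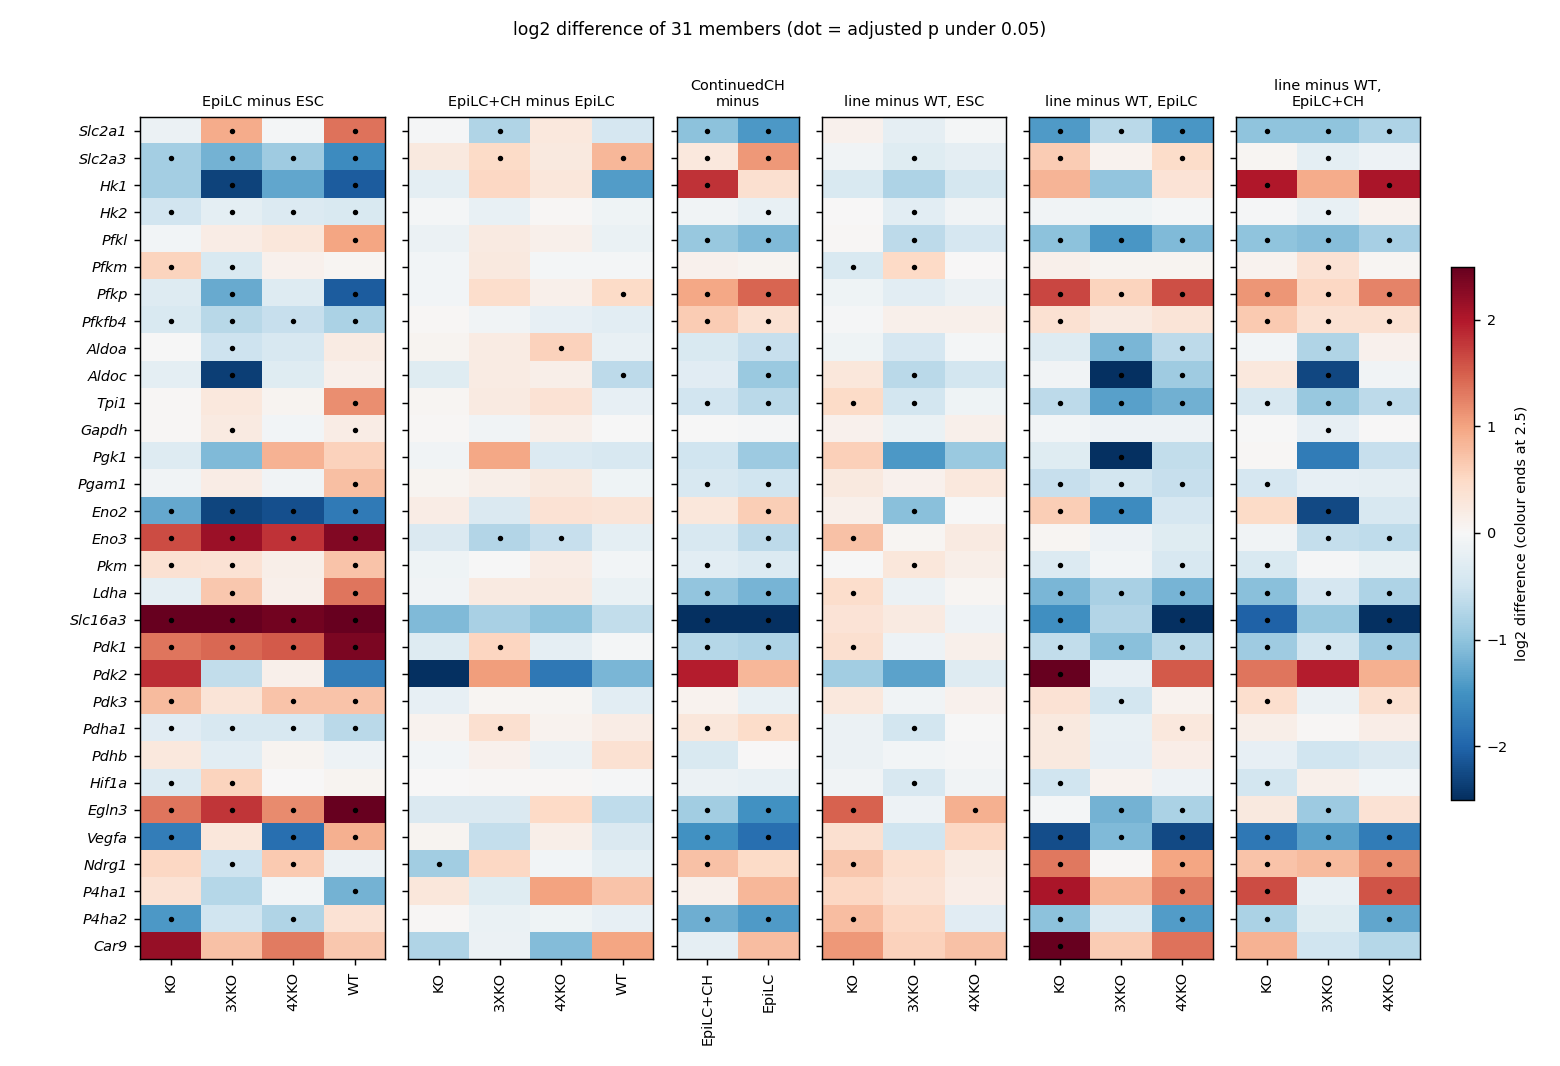
Log2 differences of the 31 members above background in at least 1 group, 1 row per gene in pathway order and 1 column per comparison, with a dot where the limma adjusted p was under 0.05 and colours ending at 2.5. Slc2a1, Ldha and Vegfa are lower, with dots, in ContinuedCH against EpiLC and in KO EpiLC and 4XKO EpiLC against WT. Where a gene is below background in a group, such as Slc16a3, the colour depends on the floor of 1 and is no measure of size.

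Set against WT EpiLC, all 3 mutant lines had lower Slc2a1, Ldha and Pdk1, and lower Vegfa on its brightest probe. In KO EpiLC 25 member probes passed, 45.5% beside a background of 21.8% (12 higher beside 11.1% and 13 lower beside 10.6%). In 3XKO EpiLC 17 passed, 30.9% beside 18.8% (2 higher beside 9.66% and 15 lower beside 9.11%). In 4XKO EpiLC 23 passed, 41.8% beside 20% (7 higher beside 10.3% and 16 lower beside 9.69%). Counting only probes above background in at least 1 group, 58.1% of member probes passed in KO EpiLC beside 35.3% of all. The shares were 39.5% beside 30.2% in 3XKO EpiLC and 53.5% beside 32.1% in 4XKO EpiLC. Vegfa was lower by 2.21 ± 0.20 log2 in KO EpiLC (limma adjusted p = 5.05e-10), by 1.11 ± 0.20 in 3XKO EpiLC and by 2.26 ± 0.20 in 4XKO EpiLC. Its second probe was below background in KO EpiLC and 4XKO EpiLC, in each at least 4.67-fold lower than in WT EpiLC. In 3XKO EpiLC that probe read -0.72 ± 0.36 log2 and did not pass (limma adjusted p = 0.197). Slc2a1 was lower by 1.41 ± 0.14, 0.67 ± 0.14 and 1.45 ± 0.14 log2 in KO, 3XKO and 4XKO EpiLC. Ldha was lower by 1.14 ± 0.11 log2 in KO EpiLC, 0.81 ± 0.11 in 3XKO EpiLC and 1.17 ± 0.11 in 4XKO EpiLC. Pdk1, though it had risen in every line, was lower than in WT by 0.61 ± 0.10, 1.05 ± 0.10 and 0.70 ± 0.10 log2.

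On the higher side in KO EpiLC stood Pfkp (1.67 ± 0.14 log2, 3.17-fold, limma adjusted p = 7.42e-11), Slc2a3 (0.63 ± 0.08), and the hypoxia targets Ndrg1 (1.32 ± 0.19) and P4ha1. Ndrg1, a stress-induced protein, had 134, 157 and 198 in KO EpiLC, against 75, 74 and 48 in WT EpiLC. P4ha1 had 17, 25 and 30.2 in KO EpiLC and was below background in WT EpiLC, at least 1.70-fold higher. So Vegfa and P4ha2, both known Hif1a targets, were lower in KO EpiLC while Ndrg1 and P4ha1, known targets too, were higher, and Hif1a itself was lower by 0.50 ± 0.12 log2 (100, 86 and 98 in KO EpiLC, against 119, 135 and 149 in WT EpiLC). Pdk2 and Car9 were called higher in KO EpiLC at levels near background, and both calls were lost without WT EpiLC replicate 2 or KO EpiLC replicate 2, that of Car9 also without KO EpiLC replicate 3. The call for Slc16a3, with 12, 13 and 17 in KO EpiLC against 34 to 46.5 in WT EpiLC, was lost without KO EpiLC replicate 1 or 2 or WT EpiLC replicate 2 or 3.

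Pfkp, Slc2a3 and Ndrg1 were higher in 4XKO EpiLC too, by 1.61 ± 0.14, 0.45 ± 0.08 and 0.98 ± 0.19 log2. In 3XKO EpiLC the largest differences were in other genes. Aldoc was lower by 3.15 ± 0.17 log2, or 8.85-fold (20 to 36 in 3XKO EpiLC, against 215 to 217 in WT EpiLC, limma adjusted p = 4.97e-14). Pfkl was lower by 1.45 ± 0.16, Tpi1 by 1.36 ± 0.14 and Aldoa by 1.15 ± 0.15 log2. Eno2 was below background in 3XKO EpiLC (5.9, 5.2 and 8.3) and at least 1.38-fold lower than in WT EpiLC (18, 18 and 21). Pgk1, whose probe was near background throughout, was at least 1.68-fold lower in 3XKO EpiLC.

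With CHIR99021 for 24 hours the contrast with WT gave 21 called member probes in KO, 38.2% beside a background of 21.1% (8 higher beside 10.8% and 13 lower beside 10.2%). It gave 22 in 3XKO, 40% beside 17.6% (5 higher beside 8.96% and 17 lower beside 8.65%), and 21 in 4XKO, 38.2% beside 20.6% (9 higher beside 10.5% and 12 lower beside 10.1%). Counting only probes above background in at least 1 group, 48.8% of member probes passed in KO beside 34% of all. The shares were 51.2% beside 28.6% in 3XKO and 46.5% beside 33% in 4XKO. Vegfa was lower by 1.79 ± 0.20, 1.34 ± 0.20 and 1.74 ± 0.20 log2 in KO, 3XKO and 4XKO EpiLC+CH, and Slc2a1 by 1.01 ± 0.14, 1.00 ± 0.14 and 0.77 ± 0.14. Pfkp was higher by 1.10 ± 0.14, 0.51 ± 0.14 and 1.24 ± 0.14 log2. Hk1 was called higher in KO and 4XKO EpiLC+CH against a WT group below background, and both calls were lost without WT EpiLC+CH replicate 1.

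In the naive medium fewer member probes were called against WT than in EpiLC or EpiLC+CH, in each of the 3 lines. In KO ESC 12 member probes passed, 21.8% beside a background of 9.39% (10 higher beside 4.6% and 2 lower beside 4.78%), and the count fell to 6 without WT ESC replicate 2 or KO ESC replicate 3 and to 7 without KO ESC replicate 2. Egln3 was higher in KO ESC by 1.47 ± 0.27 log2 (76, 102 and 142 in KO ESC, against 36, 27 and 53 in WT ESC). P4ha2 was higher by 0.77 ± 0.20 and Eno3 by 0.72 ± 0.15 log2, and Pfkm was lower by 0.39 ± 0.09 on its brightest probe. The dimmest Pfkm probe read -0.06 ± 0.26 log2 in KO ESC and was not called. The P4ha2 call was lost without WT ESC replicate 3. In 3XKO ESC 15 passed, 27.3% beside 14.2% (3 higher beside 6.91% and 12 lower beside 7.27%), and 9 without WT ESC replicate 3. Eno2 was lower by 1.05 ± 0.20 log2 in 3XKO ESC, Aldoc by 0.66 ± 0.17 and Pfkl by 0.66 ± 0.16. Pfkm was higher there by 0.50 ± 0.09 log2 on its brightest probe. Its dimmest probe went the other way and was not called (-0.61 ± 0.26 log2, limma adjusted p = 0.136). In 4XKO ESC 1 probe passed (1.82% beside 5.65%, of which 3.07% higher and 2.59% lower), Egln3, higher by 0.89 ± 0.27 log2, and it was lost without any of the 3 4XKO ESC arrays or without WT ESC replicate 1 or 2. Counting only probes above background in at least 1 group, 27.9% of member probes passed in KO ESC beside 15.1% of all. The shares were 34.9% beside 22.7% in 3XKO ESC and 2.33% beside 8.97% in 4XKO ESC.

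Hk2, Slc2a3, Tpi1, Gapdh and Eno2 lie on chromosome 6, where the median of 260 genes with a mean intensity over 100 was shifted in 2 lines. That median differed from WT by 0.19 log2 in KO EpiLC and -0.24 in 3XKO EpiLC, against 0.05 in 4XKO EpiLC. It ranged from 0.15 to 0.19 over the 3 media in KO and from -0.29 to -0.21 in 3XKO. The medians over all 5081 genes were at most 0.04. Tpi1 in 3XKO EpiLC lay further from WT (-1.36 log2) than its chromosome's median, whereas Gapdh and Hk2 in 3XKO EpiLC+CH, lower by 0.21 and 0.19 log2, lay within it. The part of this shift in the single genes was not tested.

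**Figure D3:**
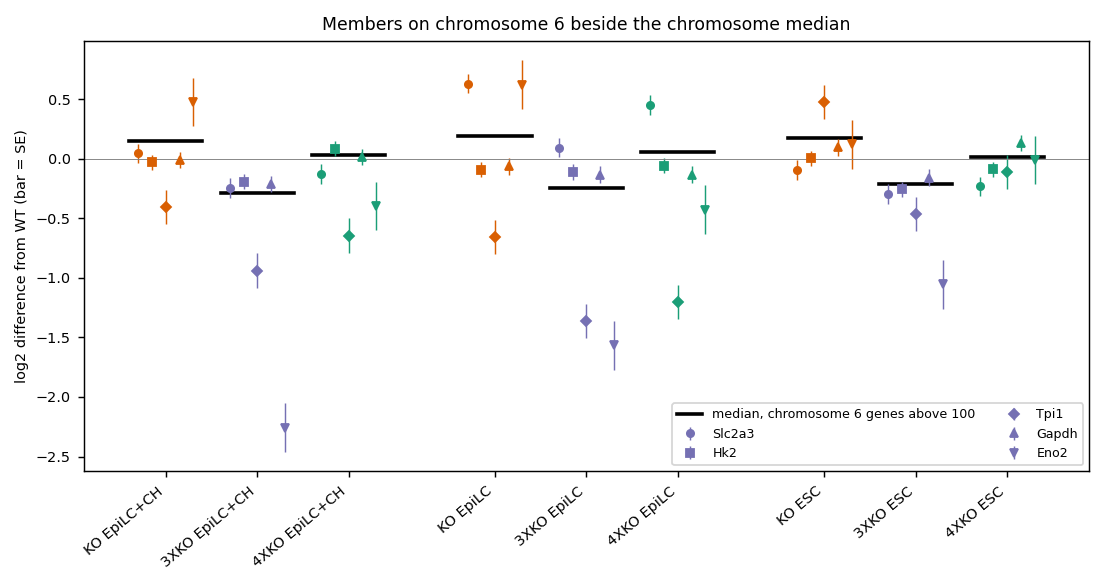
Log2 difference from WT in the same medium for the 5 members on chromosome 6 (symbols, bars are SE) in KO, 3XKO and 4XKO, with a black line at the median of 260 chromosome 6 genes of mean intensity over 100. In 3XKO EpiLC+CH Tpi1 (-0.94) lies under the line at -0.29, and Slc2a3, Hk2 and Gapdh lie close to it. Eno2 was below background in 3XKO EpiLC and 3XKO EpiLC+CH, where its position depends on the floor.

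Few members differed between EpiLC with 24 hours of CHIR99021 and untreated EpiLC, whose time in Fgf2 is not given. In WT 4 probes passed, 7.27% beside a background of 6.51%, a share near the background (3 higher beside 3.26% and 1 lower beside 3.25%). Slc2a3 had 6539, 6678.5 and 6293 in WT EpiLC+CH, against 3657, 3617.5 and 3720 in WT EpiLC, a rise of 0.83 ± 0.08 log2 or 1.77-fold without overlap (limma adjusted p = 2.13e-08). Pfkp had 467, 540 and 519 in WT EpiLC+CH, against 345.5, 385 and 357 in WT EpiLC, a rise of 0.49 ± 0.14 log2. Aldoc had 128, 132 and 154.5 in WT EpiLC+CH, against 217, 215.0 and 217 in WT EpiLC, a difference of -0.65 ± 0.17 log2. Slc2a3 and Pfkp had both fallen on leaving the naive state. The groups did not overlap for these genes, but the Pfkp call was lost without WT EpiLC replicate 1 or 3 or WT EpiLC+CH replicate 2 or 3, and the Aldoc call without WT EpiLC replicate 1 or WT EpiLC+CH replicate 1 or 2. The WT count was 1 without WT EpiLC replicate 1 or WT EpiLC+CH replicate 2, and 2 without WT EpiLC replicate 3 or WT EpiLC+CH replicate 1.

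The Slc2a3 response was smaller in KO and 4XKO than in WT. It was 0.24 ± 0.08 log2 in KO and 0.25 ± 0.08 in 4XKO, neither of which passed, and 0.49 ± 0.08 in 3XKO (limma adjusted p = 0.000137). Against the WT response, KO was lower by 0.59 ± 0.12 log2 (limma adjusted p = 0.00277) and 4XKO by 0.58 ± 0.12 (limma adjusted p = 0.00211), while the 3XKO difference of -0.34 ± 0.12 did not pass. The levels before CHIR99021 were not alike, since Slc2a3 was already higher in KO EpiLC (6141, 5520.5 and 5395) and 4XKO EpiLC (5097, 5329 and 4625) than in WT EpiLC.

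In KO EpiLC+CH against KO EpiLC 1 member probe passed (1.82%, background 0.934%, of which 0.366% higher and 0.568% lower), Ndrg1, lower by 0.87 ± 0.19 log2, which was lost without KO EpiLC replicate 2 or 3 or KO EpiLC+CH replicate 3 (2 probes passed without KO EpiLC replicate 1). In 4XKO 2 passed (3.64%, background 2.16%, of which 0.86% higher and 1.3% lower), Aldoa higher by 0.57 ± 0.15 and Eno3 lower by 0.59 ± 0.15 log2, and each was lost on leaving out any 1 of the 6 arrays compared (0 called, or 1 without 4XKO EpiLC+CH replicate 1). In 3XKO 5 passed, 9.09% beside 5.85% (3 higher beside 2.97% and 2 lower beside 2.88%). Counting only probes above background in at least 1 group, the 3XKO share was 11.6% of member probes beside 9.44% of all, near the background. Slc2a1 had 3617.5, 2873 and 2313 in 3XKO EpiLC+CH, against 4895, 4964 and 4812 in 3XKO EpiLC, a difference of -0.76 ± 0.14 log2. Eno3 was lower by 0.72 ± 0.15, Pdk1 higher by 0.54 ± 0.10 and Pdha1 higher by 0.39 ± 0.08 log2. As differences from the WT response, 1 member probe passed for KO (1.82%, background 2.04%), 2 for 4XKO (3.64%, background 4.34%) and none for 3XKO (background 0.693%). For 3XKO 10 member probes were under an unadjusted p of 0.05, and the count was 1 without WT EpiLC replicate 1, WT EpiLC+CH replicate 3 or 3XKO EpiLC replicate 2. The probes called for 4XKO were those of Slc2a3 and Aldoa, and the Aldoa call was lost without any of the 12 arrays taken singly except WT EpiLC replicate 2 and WT EpiLC+CH replicate 3. The 4XKO count was 1 without any of the 4XKO EpiLC replicates 2 and 3, the 4XKO EpiLC+CH replicates 2 and 3, the WT EpiLC replicates 1 and 3 and the WT EpiLC+CH replicates 1 and 2.

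**Figure D4:**
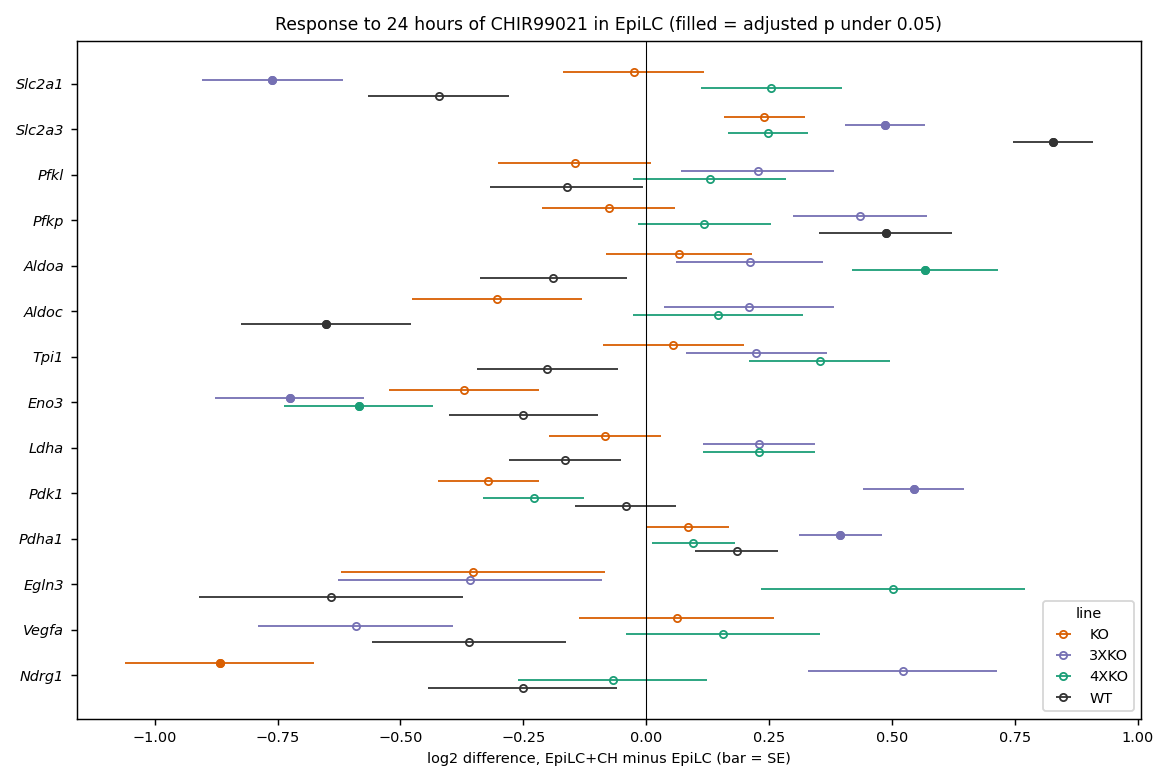
Log2 difference of EpiLC+CH minus EpiLC for 14 members in KO, 3XKO, 4XKO and WT, with SE bars and filled points where the limma adjusted p was under 0.05. Slc2a3 stands at 0.24 in KO, 0.49 in 3XKO, 0.25 in 4XKO and 0.83 in WT.

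Against WT EpiLC, more member probes were called with CHIR99021 and Fgf2 given together than with the late addition of CHIR99021. The time in Fgf2 is not given for WT ContinuedCH or WT EpiLC, and its part was not tested. In WT ContinuedCH against WT EpiLC 25 probes passed, 45.5% beside a background of 19.2% (8 higher beside 9.9% and 17 lower beside 9.34%). Among probes above background in some group the shares were 55.8% of member probes and 31% of all. Slc2a1 had 3252, 2464.5 and 2920.5 in WT ContinuedCH, against 7442 to 8220.1 in WT EpiLC (-1.44 ± 0.14 log2, limma adjusted p = 5.48e-09). Ldha had 3970.0, 3708 and 3994 in WT ContinuedCH, against 7863.5 to 9598 in WT EpiLC (-1.16 ± 0.11 log2, limma adjusted p = 4.11e-09). Vegfa had 78, 109.9 and 106 in WT ContinuedCH, against 330.5 to 376 in WT EpiLC (-1.88 ± 0.20 log2, limma adjusted p = 1.48e-08). None of these genes overlapped between the groups. Slc16a3 was below background in all 3 WT ContinuedCH arrays and at least 2.96-fold lower. Egln3 was lower by 1.51 ± 0.27 log2, P4ha2 by 1.43 ± 0.20, Pfkl by 1.11 ± 0.16 and Pdk1 by 0.76 ± 0.10.

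Higher in WT ContinuedCH were Pfkp (1052, 988 and 929, against 345.5 to 385 in WT EpiLC, 1.45 ± 0.14 log2) and Slc2a3 (8466, 7188 and 7675, against 3617.5 to 3720 in WT EpiLC, 1.08 ± 0.08 log2). Pdha1 was higher by 0.46 ± 0.08. Eno2 (0.61 ± 0.20) and Pfkfb4 (0.39 ± 0.13) were called higher too. The Eno2 call was lost without WT ContinuedCH replicate 2 or 3 or WT EpiLC replicate 1 or 2, and the Pfkfb4 call without WT ContinuedCH replicate 2 or WT EpiLC replicate 1 or 3. Against WT EpiLC+CH, WT ContinuedCH had 22 probes called, 40% beside a background of 16.8% (8 higher beside 8.81% and 14 lower beside 7.95%), and 14 without WT ContinuedCH replicate 1. Counting only probes above background in at least 1 group, the shares were 48.8% of member probes and 27.1% of all. Vegfa was lower there by 1.52 ± 0.20 log2, Slc2a1 by 1.02 ± 0.14 and Ldha by 0.99 ± 0.11, and Pfkp was higher by 0.96 ± 0.14. The comparisons of WT ContinuedCH, KO EpiLC and 4XKO EpiLC with WT EpiLC share the WT EpiLC arrays. Their values stand side by side as -1.44, -1.41 and -1.45 log2 for Slc2a1, -1.16, -1.14 and -1.17 for Ldha, -1.88, -2.21 and -2.26 for Vegfa, and 1.45, 1.67 and 1.61 for Pfkp.

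Marker lists were also summed in these groups. Formative markers summed to 5175 to 5404.5 in WT ContinuedCH, 3482 to 3637 in KO EpiLC and 5295 to 5757 in 4XKO EpiLC. They summed to 18292 to 20583 in 3XKO EpiLC, against 19701 to 21905 in WT EpiLC and 1517 to 1666 in WT ESC. Naive markers, given above for the other groups, summed to 19291 to 20449 in WT ContinuedCH and 6386.5 to 7325.5 in 3XKO EpiLC. Fibroblast markers summed to 161 to 163 in WT ContinuedCH, 188 to 196 in KO EpiLC, 1357 to 1446 in 3XKO EpiLC and 181 to 202 in 4XKO EpiLC, against 2663 to 2853 in WT EpiLC and 16.7 to 27 in WT ESC. Of the 8 markers Acta2, Dcn and Thy1 passed in WT EpiLC against WT ESC, and Col1a1, Col1a2, Col3a1, Lum and Postn were below background in WT EpiLC. Extraembryonic endoderm markers summed to 70.9 to 103.1 in WT ContinuedCH, 65.5 to 103.5 in KO EpiLC, 415 to 474 in 3XKO EpiLC and 48.2 to 98.4 in 4XKO EpiLC, against 199.5 to 221.5 in WT EpiLC and 132.7 to 154.8 in WT ESC. Without overlap, the sum was higher in 3XKO EpiLC than in WT EpiLC and lower in WT ContinuedCH, KO EpiLC and 4XKO EpiLC. Of the 7 markers Dab2 was called lower in WT ContinuedCH, KO EpiLC and 4XKO EpiLC, Pdgfra was called higher in KO EpiLC and 4XKO EpiLC, and Gata6, Pdgfra and Sox7 were called higher in 3XKO EpiLC. Foxa2 and Gata4 were below background in every group, and Pdgfra, Sox17 and Sox7 were so in WT EpiLC. Sox7 was also below background in 3XKO EpiLC, and Pdgfra in KO EpiLC. The Sox7 call in 3XKO EpiLC and the Pdgfra call in KO EpiLC therefore depend on the floor. Trophoblast markers summed to 1113 to 1347 in WT ContinuedCH, 1358 to 1375 in KO EpiLC, 1796 to 2062 in 3XKO EpiLC and 1153 to 1187 in 4XKO EpiLC, against 566 to 626.9 in WT EpiLC and 2041 to 2464 in WT ESC. Of the 6 markers Tfap2c was called lower in WT EpiLC against WT ESC, and higher against WT EpiLC in WT ContinuedCH and in all 3 mutant lines, where Cdx2 was also higher in 3XKO and Krt7 lower in WT ContinuedCH. Elf5 and Hand1 were below background in each of these 6 groups, and Cdx2 was so in WT EpiLC, KO EpiLC and 4XKO EpiLC. The part of these lists in the results above was not tested.

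Genes of neighbouring pathways were measured as well. In WT EpiLC against WT ESC 48.5% of all 15262 probes above background in at least 1 group passed. The counts of these lists were not tested against that share. Of 15 measured enzymes of the tricarboxylic acid cycle, 6 rose and 2 fell in WT EpiLC against WT ESC, among them Idh3a, a subunit of isocitrate dehydrogenase (0.45 ± 0.09 log2). Of 7 measured genes of the pyruvate dehydrogenase complex and pyruvate entry, Pdp1, the phosphatase that switches the complex on, rose by 1.34 ± 0.24 and Pdp2 fell. Among 4 measured pentose phosphate genes Tkt, the transketolase, rose by 0.54 ± 0.15 and Pgls rose, and Taldo1 fell. Of 13 measured tissue-restricted paralogs of the glycolytic enzymes 6 were above background in at least 1 group, none rose and 5 of these 6 fell, including Pfkfb2 (-2.38 ± 0.13 log2) and the kinase Pdk4 (-0.89 ± 0.17). Among 8 genes of the Hif machinery none rose. Epas1, which encodes the related factor Hif2a, was below background in WT EpiLC and at least 1.47-fold lower than in WT ESC, and Cited2 fell by 1.32 ± 0.26 log2.

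Other known Hif targets went both ways. Of 24 measured, 6 rose and 6 fell in WT EpiLC, among them Ddit4, an inhibitor of mTOR signalling (2.29 ± 0.17 log2), and Stc2 (1.74 ± 0.24) and on the lower side the adenylate kinase Ak4 (-3.03 ± 0.13) and the histone demethylase Kdm3a (-1.64 ± 0.11). In KO EpiLC against WT EpiLC 5 were higher and 7 lower, with Kdm3a higher by 1.30 ± 0.11 and Ak4 by 1.21 ± 0.13, and Stc2 lower by 3.72 ± 0.24 and Ddit4 by 2.31 ± 0.17. Of all probes above background in at least 1 group, 48.5% passed in the first comparison and 35.3% in the second. The counts were not tested against these shares.

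In the set of 8 WT arrays no member probe passed in LIF+PD+24hrCH against LIF+PD (background 0.342%, limma), and 9 were under an unadjusted p of 0.05. Slc2a3 had 8090, 7613 and 7613 in LIF+PD+24hrCH, against 5847, 6432 and 6818 in LIF+PD. The groups did not overlap, but the difference of 0.29 ± 0.07 log2 had a limma adjusted p of 0.298. Egln3 had 89, 64.5 and 84 in LIF+PD+24hrCH, against 200.5, 116 and 166.5 in LIF+PD and was not called either (limma adjusted p = 0.332).

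The single arrays of LIF+CH and PD+CH have no replicate and no test, and are set against the mean of 3 LIF+PD arrays. Of 28 member genes above background, 6 were over 2-fold away in LIF+CH, beside 9.2% of 10609 probes, and 2 in PD+CH, beside 8.81%. Pdk1 read 529.0 in PD+CH and 725 in LIF+CH, against 138, 170.4 and 164 in LIF+PD, which is 3.36-fold and 4.60-fold higher. Egln3 was 2.78-fold, Aldoc 2.28-fold and Hif1a 2.01-fold higher in LIF+CH, where Eno3 was 2.72-fold and Hk1 2.04-fold lower. Hk1 was 4.04-fold lower in PD+CH.

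**Figure D5:**
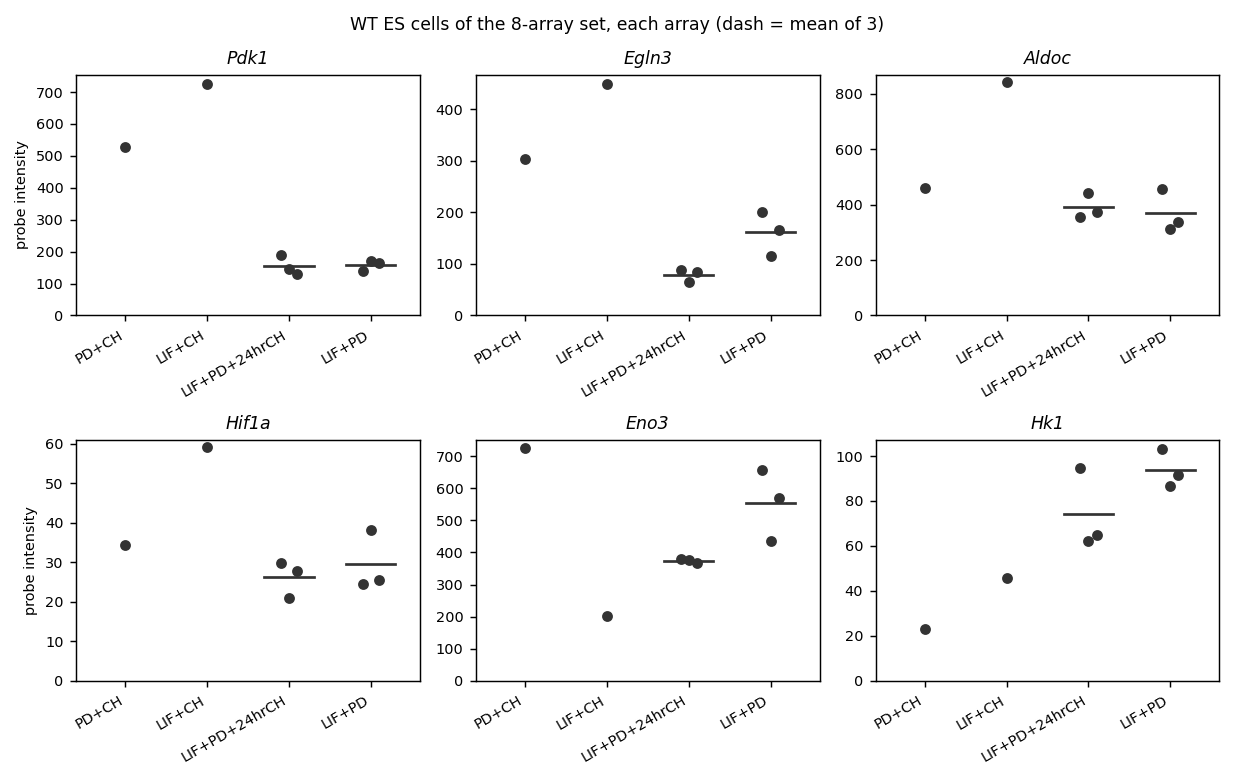
Probe intensity on a linear axis from 0 for 6 members in the 8-array set, 1 point per array and a dash for the mean of 3, with PD+CH and LIF+CH as single arrays. Pdk1 reads 529.0 and 725 on the single arrays, above the 6 other arrays, which lie between 131 and 188.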

How the data were processed

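The deposited table held background-subtracted probe intensity values for 47 arrays; the authors' processing notes name lumi and limma without role or version. Sorted values matched within 39 arrays and within 8, so those sets were kept apart. Values under 1 (31.2% to 32.1% per array) were set to 1, log2 was taken and arrays were quantile-normalized again within a set. Group means were fitted with limma 3.58.1 (R 4.3.3; lmFit, eBayes) over all groups of a set, with Benjamini-Hochberg adjustment over 25697 probes and a threshold of 0.05. Differences are log2 ± SE. Of the probes, 23978 carried 1 symbol and 1719 none. The labels call the replicates biological triplicates.

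The members and gene lists were chosen with earlier results of these data known. Named were up to 6 called genes per direction and comparison (3 for differences of responses), with paralogs. Tested on simulated data for WT EpiLC+CH against WT EpiLC (25697 probes), the fit called 39% of probes changed 1.5-fold, 64% of those changed 2-fold and 100% of those changed 4-fold, with 6 calls among 25497 unchanged probes. The choices varied were the normalization (cyclic loess or none beyond the deposited one), the floor, the filter on dim probes, the prior, a replicate block, which groups enter the fit, the averaging of KO EpiLC replicates 2 and 3, and the omission of single arrays. Figures used matplotlib 3.10.9. The number of arrays limits the precision.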

Additional observations from a re-analysis of the deposited data

Results flagged for a closer look

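Responses that differed between a mutant line and WT, by limma's test of the difference itself, are given here as the log2 response of the line minus that of WT, with no explanation weighed. For the move from ESC to EpiLC the KO differences were Pfkp 1.77, Slc2a3 0.72, Vegfa -2.62, P4ha2 -1.80, Ldha -1.57 and Pdk2 3.58. In the set of 39 arrays Pdk2 was below background in every group but KO EpiLC and, on a single array, WT ESC, so its size depends on the floor. The Pdk2 call was lost without KO ESC replicate 1 or 3, KO EpiLC replicate 2, WT ESC replicate 1 or 2, or WT EpiLC replicate 1 or 2. In 3XKO the differences were Pfkp 0.84, Slc2a3 0.39, Aldoc -2.48, Pdk1 -0.93 and Tpi1 -0.90. In 4XKO they were Pfkp 1.76, Slc2a3 0.68, Vegfa -2.79, Slc16a3 -2.79 and Egln3 -1.68, where Slc16a3 was below background in both 4XKO groups and in WT ESC. For the response of EpiLC to 24 hours of CHIR99021 the differences were Slc2a3 -0.59 in KO, and Slc2a3 -0.58 and Aldoa 0.76 in 4XKO.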

How the results depend on the processing

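No named difference changed sign. Of 2479 alternative values for 180 named differences, 2290 kept their side of the threshold and 189 lost it, 126 of these with an array left out and 47 with only the arrays compared in the fit. The cause was not tested, except that fewer arrays enter the last 2 settings. Counts below are of member probes, and a response difference is a line's CHIR99021 response minus that of WT.

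With only the arrays of a comparison in its fit, 2 probes passed for CHIR99021 in WT, 0 in KO, 1 in 3XKO and 1 in 4XKO, 2 for the response difference of KO and 6 for that of 4XKO. The same setting gave 1 for KO ESC, 9 for 3XKO ESC and 0 for 4XKO ESC against WT ESC, and 13 for KO and 14 for 3XKO against WT in EpiLC+CH. A floor at the background limit gave 3 for CHIR99021 in KO and 9 in 3XKO, and response differences of 3 in KO and 1 in 3XKO. Without the dimmest 33.3% of probes the response differences were 1 in 3XKO and 5 in 4XKO. A trended and robust prior gave 8 for CHIR99021 in 3XKO, 2 for 4XKO ESC, and response differences of 1 in 3XKO and 7 in 4XKO. The replicate block gave 1 for the response difference of 3XKO and moved no other count by over 1.5 times. Deviations from group means correlated at a median of 0.11 between same-numbered arrays of different groups (-0.55 to 0.65) and -0.06 between others (-0.68 to 0.63), and 20 of 39 arrays correlated best with an array of their own number. Not every pair was over 0.1, so the numbers were not taken as pairs, and the medians are a hint from the data, not the design. Averaging KO EpiLC arrays 2 and 3 gave 0 for CHIR99021 in KO.

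With each array left out in turn, counts ranged from 6 to 12 for KO ESC, 9 to 15 for 3XKO ESC and 0 to 1 for 4XKO ESC, each against WT ESC. They ranged from 8 to 12 for the difference of the 3XKO move to EpiLC from that of WT, 14 to 20 for ContinuedCH against EpiLC+CH, 1 to 4 for CHIR99021 in WT, 0 to 2 in KO and 0 to 1 in 4XKO, and 0 to 1 and 1 to 3 for the response differences of 3XKO and 4XKO. For genes near background, differences depend on the floor.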

Other observations

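A search added after the data were seen looked for the TCF/LEF core letters CTTTGA, on both strands, in the same promoter windows. They were present in 4 of 37 member windows (10.8%), beside 16.2% of all 27025 windows.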
